A study of Mus musculus with 6 samples.

Results

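Ubiquitin-specific proteases (USPs) were followed in 6 liver samples from mice of the inbred strain C57BL/6. The members are the 34 of 8390 rows of the expression table whose symbol is Usp followed by a number and optional letters, with Usp18 left out. Gene expression had been measured by RNA sequencing of whole liver. In the LV group, 3 samples came from mice given 3e8 transducing units of a lentiviral vector intravenously, and livers were collected after 4 h. Such a vector is a virus-like particle made from parts of a retrovirus that delivers a gene but cannot replicate. The remaining 3 samples had no treatment. Each sample is called a liver here, although the labels do not say whether replicates are separate mice. Since none of the samples is a mock injection, the vector cannot be told apart from the injection or handling. Age and sex are not in the labels, and the labels describe no allele or agent shared by both groups.

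USPs are cysteine proteases that remove ubiquitin from proteins, and they form the largest family of deubiquitinases in mammals. By trimming ubiquitin chains they can spare a protein from the proteasome, return a receptor from the endosome to the cell surface or reset a signal carried by the chain. Usp18 differs from its relatives in that it removes the ubiquitin-like protein Isg15, and it is a classical interferon-stimulated gene.

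Values are quoted in the deposited unit, a whole number per gene and library that appears to be scaled for library size and transcript length. Read depth is unknown, and 1 unit is a large step for the lowest genes. A log2 fold change is the difference of mean log2(value + 1), LV minus untreated, so for low genes it is smaller than the true change. Column totals lay between 497295 and 526009. All 8 hepatocyte markers were listed, with Alb between 41700 and 69728. Male-biased liver genes were high in LV replicate 3 and untreated replicate 2 (Elovl3 at 169 and 159, and at most 4 in each other library), so calls that are lost without these livers are given as such. In whole liver, fewer cells of a type and less RNA per cell cannot be told apart.

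Few USP genes differed between LV and untreated livers beyond the spread between replicates, and those that rose had smaller fold changes than Usp18. Of 34 members, 2 were higher and 0 lower in LV livers by limma (adjusted p under 0.05, Benjamini-Hochberg). Usp42 and Usp25 were the members that rose. Over all 8386 genes tested, 3.76% were higher and 0.870% lower, so the share of USP genes called is near the background. At an unadjusted p under 0.05 in limma, 4 members were higher and 4 lower, against 9.21% and 10.3% of all genes. Usp18, in contrast, stood at 321, 294 and 199 in LV livers against 14, 17 and 11 in untreated ones (log2 fold change 4.17 ± 0.24 SE, limma adjusted p = 0.00139). The median log2 fold change was 0.01 over the 34 members and -0.07 over all genes.

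**Figure D1:**
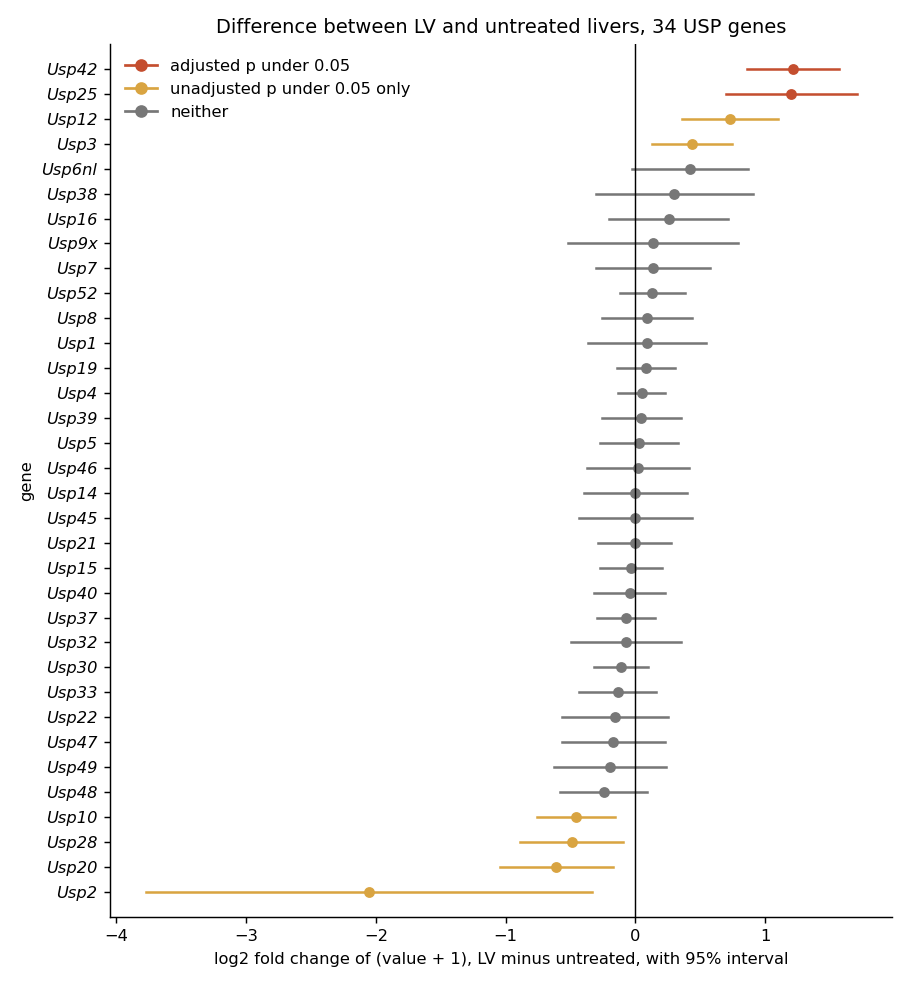
Log2 fold change of value + 1, LV minus untreated, for each of the 34 USP genes, with its 95% interval from limma (3 livers per group). Usp42 and Usp25 lie furthest to the right, Usp2 has the widest interval, and 29 of the 34 points lie within 0.5 of 0.

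Usp42, a deubiquitinase reported to act on p53, rose from a low level. Its values were 7, 7 and 6 in LV livers and 2, 3 and 2 in untreated livers. Every LV value lay above every untreated one, and the ratio of the means was 2.86. The log2 fold change was 1.21 ± 0.14 SE (limma adjusted p = 0.0109). The call was lost without any 1 of untreated replicates 1 and 3 or LV replicates 1 and 2, with adjusted p between 0.0608 and 0.0724. Rounding weighs heavily on a gene at these levels.

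Usp25, which removes ubiquitin from TRAF adaptors of innate immune signalling, gave the larger rise in absolute terms. It stood at 21, 19 and 16 in LV livers and at 6, 10 and 7 in untreated livers. The groups did not overlap. LV replicate 3 was the lowest of the LV livers, as it was for Usp18, for 8 of the 34 members and for 2406 of all 8390 genes. The mean was 18.7 ± 2.52 (SD, n = 3) against 7.67 ± 2.08, a ratio of 2.43, and the log2 fold change was 1.20 ± 0.20 SE (limma adjusted p = 0.0375). With single livers left out, the call held only without untreated replicate 2 (adjusted p = 0.0282), and leaving out any other liver gave adjusted p values between 0.0639 and 0.159. Without LV replicate 3 and untreated replicate 2 together, both calls held, with limma adjusted p = 0.0351 for Usp25 and 0.0036 for Usp42.

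Usp12 and Usp46 are close paralogs that gain activity by binding the WD-repeat protein Wdr48. Usp12 stood at 13, 12 and 13 in LV against 7, 9 and 6 in untreated livers. These groups did not overlap either, but the difference did not pass over all genes (log2 fold change 0.73 ± 0.15 SE, limma adjusted p = 0.0639). It passed with quantile normalization (0.0195), median-of-ratios scaling (0.0161), upper-quartile scaling (0.0283), a filter on a mean of at least 5 (0.0441) and without untreated replicate 2 (0.0286). Usp46 stood at 4 in each LV liver and at 4, 5 and 3 in untreated livers. Wdr48 had 8, 9 and 10 in the LV group and 10, 9 and 9 in the untreated group, and Wdr20a, a second activating subunit, had 10, 11 and 12 against 10, 11 and 7. Neither partner passed the test.

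**Figure D2:**
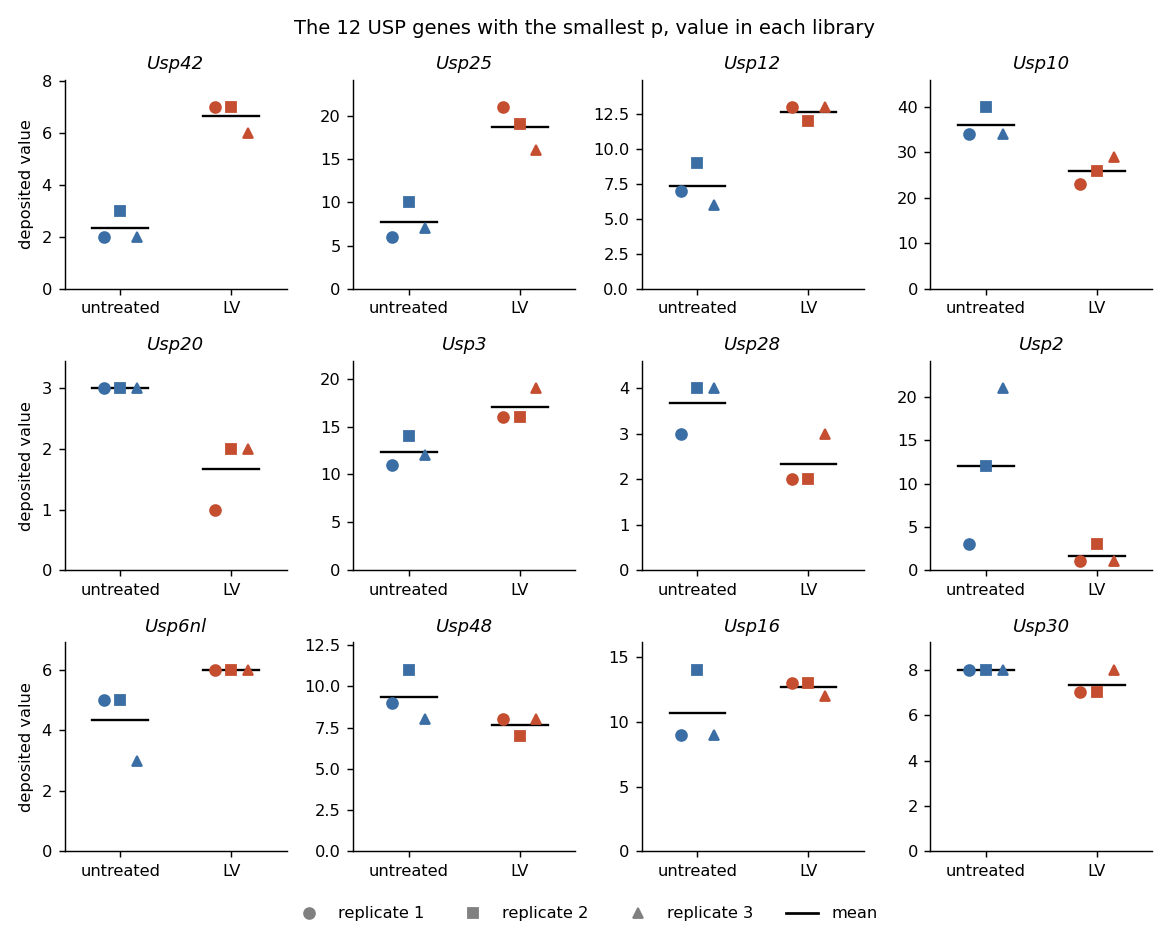
Deposited value in each library for the 12 USP genes with the smallest p. Symbols mark replicates, horizontal lines mark group means of 3 livers, and each axis starts at 0. Usp42, Usp25, Usp12, Usp3 and Usp6nl have every LV value above every untreated value, and Usp10 and Usp20 have every LV value below.

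Groups stood apart for 7 of the 34 members. Every LV value was above every untreated value in 5 of them, against 8.65% of all genes tested, and below in 2, against 11.0%. Besides Usp42, Usp25 and Usp12, the higher members were Usp3 and Usp6nl. Usp3, which removes ubiquitin from histones H2A and H2B, had 16, 16 and 19 after the vector and 11, 14 and 12 without it (log2 fold change 0.43 ± 0.12 SE, limma adjusted p = 0.139). Usp6nl is named for its likeness to part of USP6 and encodes a GTPase-activating protein for Rab proteins, not a protease. It had 6 in each LV liver and 5, 5 and 3 in untreated livers (adjusted p = 0.279).

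Usp10 had the highest mean over the 6 livers of all members and lay lower in every LV liver. This enzyme acts on p53 and on endosomal receptors and binds the stress granule proteins G3bp1 and G3bp2. Its values were 23, 26 and 29 in LV livers against 34, 40 and 34 in untreated ones. The mean was 26 ± 3 (SD, n = 3) against 36 ± 3.46, with a log2 fold change of -0.46 ± 0.12 SE that did not pass (limma adjusted p = 0.116, between 0.0954 and 0.28 over the alternatives). G3bp2 rose in the same livers, with 50, 50 and 43 in LV livers against 14, 17 and 11 in untreated ones (1.71 ± 0.17 SE, adjusted p = 0.00638, and up to 0.052 without LV replicate 1 or LV replicate 2). G3bp1 stood at 18, 17 and 12 in LV against 12, 14 and 14 in untreated livers, and these ranges overlapped.

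Promoter windows were searched for motifs because Usp25, Usp42 and Usp12 stood higher in the livers in which Usp18 and other interferon-response genes rose. RefSeq windows of 300 bases (250 before to 50 after the annotated start, build GRCm38.p6, not the mm9 of the deposited data) were found for 26 of 34 members, 27 windows in all. Windows were not found for Usp1, Usp14, Usp22, Usp33, Usp39, Usp42, Usp5 and Usp9x. The motifs, searched on both strands, were the core of the interferon-stimulated response element GAAANNGAA, the E-box CACGTG bound by clock factors, the D-box TTATGTAA, a kappa B form GGNNTTTCC, the STAT site TTCNNNGAA and the CRE TGACGTCA. The interferon core was in the window of 1 member, Usp49, against 8.56% of 32851 windows, and the E-box in those of 4 members (Usp6nl, Usp4, Usp32 and Usp16), against 7.15%. The kappa B form was in those of 2 (Usp16 and Usp45), against 5.82%. The D-box, STAT site and CRE, held by 0.938%, 8.3% and 1.79% of all windows, were in 0 member windows. Usp18 was put to the same search and no match was listed for it, but whether it had a window was not recorded. A match is only a run of letters, and its absence says nothing of more distant sites.

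The sequences shown are those of the members that bear on this search. Usp49 holds the interferon core (in capitals) yet had 1, 2 and 2 in LV and 2 in each untreated liver. A further match to this core in its window begins at base 38 after the annotated start and is not printed. Usp12 and Usp10 were the members with the smallest p after Usp42 and Usp25 and did not pass. The sequences run 5′ to 3′ on the strand of the gene. Each stops at the annotated start, or earlier where a run of bases matched an annotated transcript. Shorter overlaps and transcripts of the opposite strand were not checked. The window of Usp25 was searched, held none of the motifs and is not printed. Usp49 is at chr17:47630440-47630689 (plus strand), Usp12 at chr5:146795007-146795206 (minus strand) and Usp10 at chr8:119910110-119910359 (plus strand). None of the motifs occurs in the stretches of Usp12 and Usp10. Their GC content was 74.5% over the 200 bases printed for Usp12 and 46.4% over the 250 printed for Usp10. The median over the 250 bases before the start was 65.2% for the member windows and 52.4% for all windows.
Usp49: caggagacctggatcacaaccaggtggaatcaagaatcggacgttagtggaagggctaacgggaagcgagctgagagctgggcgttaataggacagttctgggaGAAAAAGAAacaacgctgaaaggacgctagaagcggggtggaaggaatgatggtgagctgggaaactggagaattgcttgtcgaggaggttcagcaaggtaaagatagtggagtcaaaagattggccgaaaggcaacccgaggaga
Usp12: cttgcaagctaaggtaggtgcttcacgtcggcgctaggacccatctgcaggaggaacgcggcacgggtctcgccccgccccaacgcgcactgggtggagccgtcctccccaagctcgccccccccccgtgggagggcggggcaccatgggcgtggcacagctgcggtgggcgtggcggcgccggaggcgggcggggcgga
Usp10: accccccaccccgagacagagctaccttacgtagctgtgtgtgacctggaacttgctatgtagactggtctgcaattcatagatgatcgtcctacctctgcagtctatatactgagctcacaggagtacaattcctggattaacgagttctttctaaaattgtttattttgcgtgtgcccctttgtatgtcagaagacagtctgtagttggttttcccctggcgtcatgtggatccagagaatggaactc

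Of the paralogs Usp20 and Usp33, which act on receptors that cycle through endosomes, Usp20 lay lower in each LV liver. It had 1, 2 and 2 in LV and 3 in each untreated liver (log2 fold change -0.61 ± 0.17 SE, limma adjusted p = 0.138, and 0.025 without LV replicate 1). At this level the gap between the groups was 1 unit of a rounded scale. Usp33 had 9, 8 and 10 against 10, 11 and 9. Usp8, which acts with the endosomal sorting machinery, had 16, 14 and 18 against 15, 17 and 13. Usp32 had 4, 4 and 5 against 4, 6 and 4. None of these but Usp20 reached an unadjusted p under 0.05.

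Usp2 had the largest fold change by size and the largest spread. Its transcript is known to follow the circadian clock in liver. The values were 1, 3 and 1 in LV livers and 3, 12 and 21 in untreated livers, so LV replicate 2 and untreated replicate 1 met at 3. The log2 fold change was -2.05 ± 0.69 SE, with a 95% interval from -3.77 to -0.33, and did not pass (limma adjusted p = 0.191, between 0.0808 and 0.475 over the alternatives). Over the 6 livers the highest value was 21 times the lowest, whereas 15 members varied by at most 1.5 times.

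Clock genes were set beside Usp2 for this reason. Of 12 listed in the table, 11 had a negative log2 fold change and 0 passed in limma, with 5 lower at an unadjusted p under 0.05. Over all genes, 58.0% had a negative log2 fold change and 10.3% were lower at that p. None passed as lower when any single library was left out, and 1 (Tef) was lower with the replicate number as a block. Dbp, a clock output factor, had 17, 53 and 57 in the LV group and 40, 120 and 167 in the untreated group. Gm129, an older symbol of the clock repressor Ciart, had 2, 7 and 2 against 2, 11 and 25. Per1 had 5, 9 and 2 against 4, 9 and 18. For Usp2, Dbp, Gm129 and Per1 alike, untreated replicate 3 was the highest of the 6 livers. It was so for 6 of the 12 clock genes, while untreated replicate 2 was the highest for 5 and LV replicate 3 for 1 (Clock). Gm129 and Per1 were picked for display after their values were seen. Groups did not overlap for 3 of the 12 clock genes, Cry2, Per2 and Tef, all with LV below, against 11.0% of all genes. Cry2 had 17, 23 and 24 against 31, 36 and 33 (log2 fold change -0.63 ± 0.15 SE, limma adjusted p = 0.0934), and Per2 had 4, 6 and 6 against 8, 14 and 10 (-0.87 ± 0.24 SE, adjusted p = 0.129). The labels give no time of day at which livers were taken, and the part of the clock in the values of Usp2 was not tested.

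**Figure D3:**
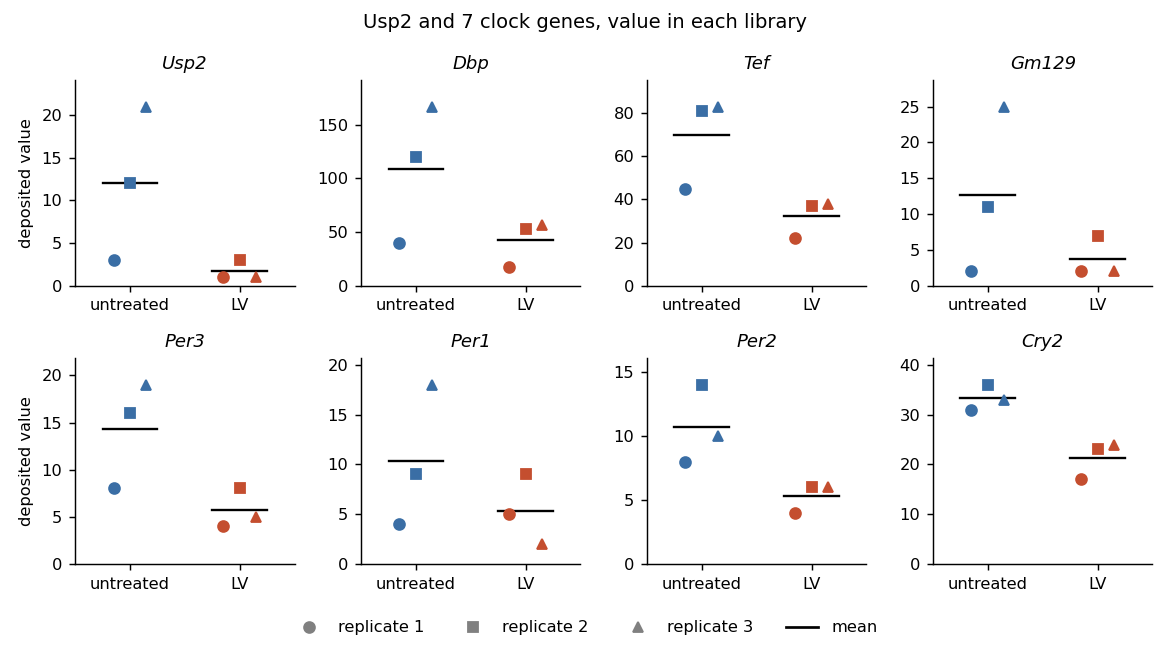
Deposited value of Usp2 and of 7 clock genes in each library, with group means of 3 livers as horizontal lines and axes that start at 0. Usp2 ranges from 3 to 21 among untreated livers, and untreated replicate 3 is also the highest liver for Dbp, Tef, Gm129, Per3 and Per1.

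The 4 members grouped under DNA damage and the cell cycle gave no call, where 3.76% of all genes were higher and 0.870% lower. Usp42, reported to act on p53, is not in this group. Usp28, which stabilizes Myc and acts in the damage response, had 2, 2 and 3 after the vector and 3, 4 and 4 without it (log2 fold change -0.49 ± 0.16 SE, limma adjusted p = 0.176). Its groups met at 3. Usp7, the deubiquitinase of Mdm2 and p53, had 12, 11 and 13 against 10, 14 and 9. Usp1, which acts with Wdr48 on Fancd2 and Pcna, had 5, 4 and 3 against 3, 4 and 4, and Usp37 had 5 in each LV liver against 6, 5 and 5. Among their substrates, Trp53, which encodes p53, rose: it stood at 21, 22 and 20 in LV against 14, 13 and 12 in untreated livers (0.65 ± 0.09 SE, adjusted p = 0.0191, with values up to 0.102 without any 1 of LV replicates 1 and 2 or untreated replicates 2 and 3, and 0.0994 without LV replicate 3 and untreated replicate 2). Mdm2, the ubiquitin ligase of p53, had 13, 12 and 12 against 9, 11 and 8 and did not pass (adjusted p = 0.193).

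Histone deubiquitinases beside Usp3 had overlapping groups. Usp16, which acts on H2A, had 13, 13 and 12 in the LV group and 9, 14 and 9 in the untreated group (limma adjusted p = 0.492). Untreated replicate 2 supplied the 14. Leaving out this liver and LV replicate 3 gave 13 and 13 against 9 and 9 and an adjusted p = 0.044. Usp22, the deubiquitinase of the SAGA coactivator, had 9, 12 and 10 against 10, 14 and 11. Usp21 had 6, 8 and 7 against 7 in each untreated liver.

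Of the 4 members grouped under the proteasome and protein quality, Usp25, described above, was called higher and 3 were not called, where 3.76% of all genes were higher. Usp5, which disassembles unanchored ubiquitin chains, had 26, 27 and 25 after the vector and 30, 24 and 23 without it. Usp19, which has a form anchored in the endoplasmic reticulum, had 25, 25 and 24 against 25, 24 and 21. Usp14, which trims chains on the proteasome, had 6, 5 and 7 against 6, 7 and 5. Psmd14, the deubiquitinase built into the proteasome lid, had 20, 17 and 20 against 21, 21 and 16. Usp30, on the mitochondrial outer membrane, had 7, 7 and 8 against 8 in each untreated liver.

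Of the 7 members grouped under signalling, 0 were called, where 3.76% of all genes were higher and 0.870% lower. Usp25, which acts on TRAF adaptors, was grouped under the proteasome and protein quality and is not among these 7. Usp4 had the second-highest mean of the family and the least relative variation, with 31, 31 and 29 in LV livers against 30, 30 and 28 in untreated ones (log2 fold change 0.05, 95% interval from -0.14 to 0.23). Its paralog Usp15 had 11 in each LV liver and 10, 12 and 12 in untreated livers. Usp47 had 16, 15 and 19 against 17, 23 and 17. Usp48 had 8, 7 and 8 against 9, 11 and 8, and the groups met at 8. The X-linked Usp9x had 7, 7 and 10 against 7, 10 and 5, and Usp38 had 6, 7 and 8 against 5, 8 and 4. Usp45 had 2, 2 and 3 against 2, 3 and 2. Usp40, like Usp42 in none of the role groups, had 9, 8 and 9 against 9, 10 and 8.

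Besides Usp6nl, Usp52 and Usp39 carry the family name without known protease activity. Usp52, the homolog inactive as a protease that forms part of the Pan2-Pan3 deadenylase, stood at 15, 15 and 13 in LV against 13, 14 and 12 in untreated livers. Usp39, a splicing factor, had 9, 11 and 10 against 9, 11 and 9. Neither passed the test.

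For the 26 members with an unadjusted p of 0.05 or more, log2 fold changes ran from -0.25 (Usp48) to 0.42 (Usp6nl). Their 95% intervals reached from -0.63 (Usp49) to 0.90 (Usp38). For 16 of the 34 members the whole interval lay within 0.5 of 0 on the log2(value + 1) scale. A change beyond about that size on this scale is outside the interval for these. Among them are Usp45, Usp46 and Usp32, with means of 2.33, 4 and 4.5, and at such levels the true change may be larger. The whole intervals of Usp42 and Usp25 lay above 0.5. For the other 16 members such a change was neither shown nor outside the interval.

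USP genes were listed at modest levels. The mean over the 6 livers ran from 1.83 (Usp49) to 31 (Usp10), and the median member had 8.67, against 11.8 for all genes. Next to Usp10 and Usp4 came Usp5, Usp19 and Usp47, with means of 25.8, 24 and 17.8. The ranges of Usp10, Usp4 and Usp5 overlapped, so their order is not settled. Of 56 protein-coding symbols of this form in RefSeq, Usp18 included, 22 are not among the rows, Usp9y, Usp13, Usp24, Usp34 and Usp36 among them, and their levels are unknown.

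**Figure D4:**
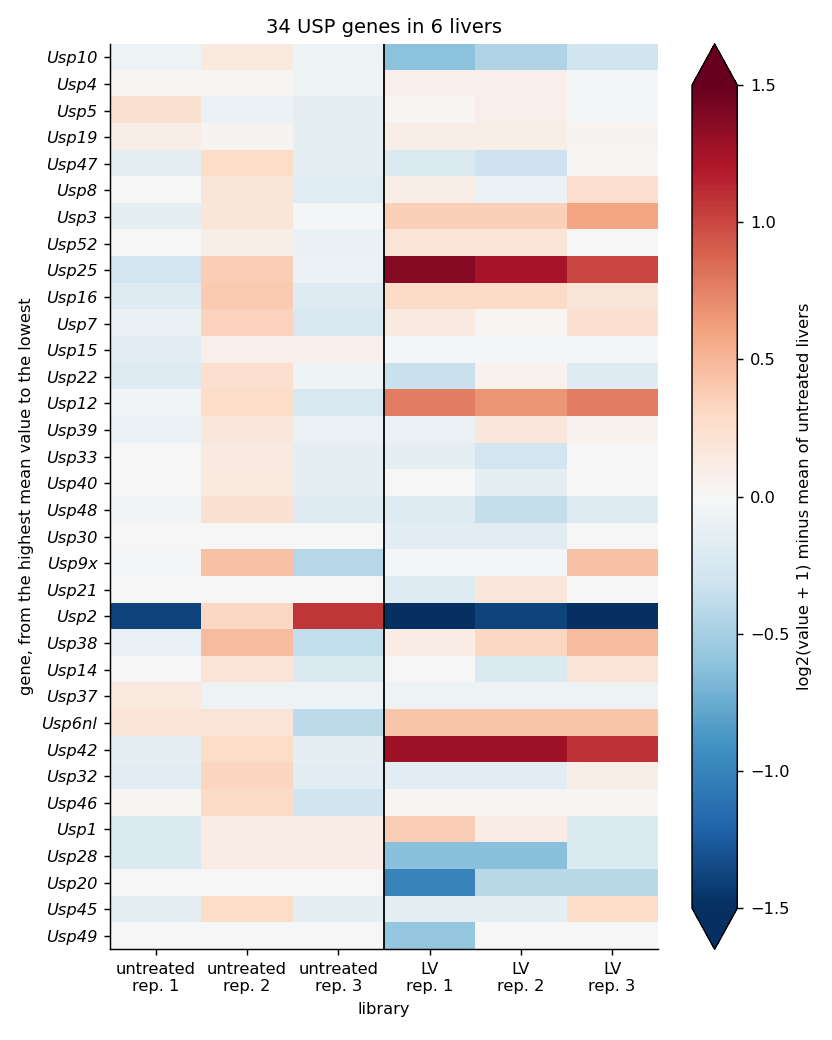
Log2(value + 1) of the 34 USP genes in each of the 6 livers, minus the mean of the 3 untreated livers, with genes ordered by mean value. Usp25, Usp42 and Usp12 are red in all 3 LV livers, and the column of untreated replicate 2 is red or near white for every gene but Usp5 and Usp37, which are faintly blue.

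Single livers differed in the family as a whole. The summed value of the 34 members was 352, 356 and 368 in LV livers against 334, 394 and 330 in untreated ones. Untreated replicate 2 was strictly the highest untreated liver for 21 of 34 members, against 41.4% of all genes. LV replicate 3 was strictly the highest LV liver for 13, against 30.9%. Both held for 11 members, against 18.7% of all genes: Usp10, Usp47, Usp8, Usp3, Usp7, Usp33, Usp9x, Usp38, Usp14, Usp32 and Usp45. Both livers were strictly the lowest of their group for 0 members, against 9.87% of all genes. These are the same livers in which male-biased genes were high. The female-biased gene Cyp2b9 was low in them, at 8 and 5, and between 121 and 157 elsewhere. The part of sex or of another property of these livers in the USP values was not tested.

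Few genes of the other deubiquitinase families changed. Of 29 listed members of the OTU, UCH, MJD, JAMM and MINDY families and Cyld, 1 was higher and 0 were lower, against 3.76% and 0.870% of all genes, with a median log2 fold change of -0.11. The member that rose was Tnfaip3, also called A20, an NF-kB-induced brake on NF-kB signalling, with 7, 5 and 5 in LV and 1 in each untreated liver (1.72 ± 0.13 SE, limma adjusted p = 0.0023). Its adjusted p was 0.0552 without LV replicate 3 and untreated replicate 2. Otud5 had 28, 32 and 33 against 22, 25 and 22 and did not pass (adjusted p = 0.0965).

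USP partners and substrates gave a few calls, all higher. Of 21 partner subunits, 2 rose, G3bp2 and Daxx, where 3.76% of all genes were higher. Daxx, a nuclear adaptor bound by Usp7, had 67, 51 and 39 in the LV group and 7, 8 and 7 in the untreated group (log2 fold change 2.65 ± 0.21 SE, limma adjusted p = 0.0028). Of 34 substrates in the table, 3 rose and 0 fell (median -0.04), again beside 3.76% higher and 0.870% lower of all genes: Trp53, Ddx58, the RNA sensor RIG-I, with 49, 49 and 46 against 10, 10 and 8, and Tbk1, a kinase of interferon induction, with 41, 35 and 32 against 11, 15 and 11. Tbk1 did not pass with LV replicate 2, untreated replicate 1 or untreated replicate 3 left out (limma adjusted p up to 0.0596, and 0.0699 with the replicate number as a block). The substrate calls fell to 1 without LV replicate 2 and without untreated replicate 3, and the partner calls to 1 without LV replicate 1 and without LV replicate 2.

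The genes that attach Isg15 rose, as Usp18 did. All 5 members found in the table, Usp18 among them, were higher (median log2 fold change 2.65), where 3.76% of all genes were higher. Only 3 of them passed with LV replicate 1, LV replicate 2 or else untreated replicate 3 left out. Isg15 itself had 1452, 1058 and 652 after the vector and 22, 31 and 16 without it. Ube1l, its activating enzyme, had 66, 60 and 41 against 10, 8 and 6. Ube2l6, its conjugating enzyme, had 129, 117 and 89 against 41, 36 and 30 (limma adjusted p = 0.00987), and Trim25, a ligase reported for Isg15, had 82, 80 and 64 against 20, 33 and 21 (adjusted p = 0.0199). Without LV replicate 3 and untreated replicate 2 together, Ube1l and Ube2l6 did not pass (adjusted p = 0.0564 and 0.0675). Ube1l was also the 1 gene called among 16 ubiquitin precursors, activating enzymes and ubiquitin-like modifiers, again beside 3.76% of all genes higher. The other 15 did not pass.

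Marker genes of other liver cells differed somewhat between livers. Of 8 Kupffer cell markers listed, 7 had a negative log2 fold change and 0 passed in limma, with 1 lower at an unadjusted p under 0.05 (Vsig4), where 58.0% of all genes had a negative log2 fold change. Their summed value was 108 to 260 in LV and 207 to 309 in untreated livers, and no defining marker was at 0. Of the 8, 2 lay below in every LV liver, against 11.0% of all genes. They were Clec4f (19, 49 and 35 against 77, 53 and 53) and Vsig4 (5, 10 and 7 against 17, 15 and 18). Of 8 sinusoidal endothelial markers, 5 were negative, 3 were positive and 0 passed, with 1 at an unadjusted p under 0.05 (Lyve1, which was higher in LV, at 10, 5 and 5 against 3, 3 and 2). Sums ran from 86 to 146 in LV and from 148 to 172 in untreated livers, with no overlap. Clec4g, at 11, 43 and 33 against 55, 54 and 58, was the only 1 of these markers below in every LV liver. Without Clec4g the sums overlap. Stellate cell markers summed to between 132 and 157 in LV and between 128 and 168 in untreated livers. Of the 7 listed, 3 had a negative log2 fold change and 0 passed in limma, and Lrat (3, 2 and 2 against 4 in each untreated liver, limma adjusted p = 0.0734) and Dcn lay below in every LV liver. None of the 7 neutrophil or 8 lymphocyte markers was among the rows. The part of cell composition in the USP values was not tested.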

How the data were processed

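The authors deposited 1 table of 6 libraries, whose values are taken here as a score: the authors' whole numbers, with no unit named, look scaled for depth and transcript length before rounding. This reading rests on the values. Among genes with a mean of 2 to 5, replicate variance averaged 0.246 of the mean in LV and 0.238 in untreated livers, less than counted reads would show. Libraries were prepared from total RNA with Illumina TruSeq reagents, per the labels' protocols, and the submitters' processing notes name build mm9. Aligner, annotation and counting method: not given in the sources used here. It is not stated how the 8390 rows were chosen, and close paralogs may share reads.

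The 8386 genes that reached 1 in 3 or more libraries were fitted as log2(value + 1) by group in limma 3.58.1 (R 4.3.3, intensity trend, no covariate), with two-sided p-values and Benjamini-Hochberg adjustment over all of them. All 34 members passed this filter. The labels do not say how replicates arose, so a p-value reflects only the spread among these livers, which may be technical. Members and gene lists (216 entries, 160 found, 8 by an older symbol) were chosen with earlier results of these data known. A gene of the clock list is not reported here and is left out of its counts. The naming rule took members that passed or whose groups do not overlap, the 12 with the smallest p and the 5 with the highest mean, and of other lists the called genes or up to 4 with the smallest p. The remaining members and a few genes of other lists (Wdr48, Psmd14, Dbp, Wdr20a, G3bp1, Mdm2, Otud5, Gm129 and Per1) are given outside this rule. On simulated data for this comparison (8375 genes, 5 runs, 200 changed genes each), the fit recovered 50% of genes raised by a log2 fold of 1 and 86.8% of those raised by 2, and 12.2% of calls were false. Alternatives left out each library, added a replicate block, and changed the pseudocount, filter, scaling, trend and threshold.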

Additional observations from a re-analysis of the deposited data

How the results depend on the processing

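Every fold change of the 12 members with the smallest p kept its sign under each alternative that could give a value. Usp42, Usp28 and Usp20, with means under 5, have no value under the filter on a mean of at least 5. The number of USP genes called higher was 2 as reported and ranged from 0 to 3 when single libraries were left out, while the number called lower ranged from 0 to 1 (Usp20). It was 0 higher with a replicate block and 0 at an adjusted p threshold of 0.01, and 3 under quantile, median-of-ratios or upper-quartile scaling. Over all genes, 315 higher and 73 lower calls became 119 to 313 and 10 to 116 with single libraries left out, 145 and 11 with the block, and 156 and 19 at the threshold of 0.01. The lower calls rose to 136 with both livers high in male-biased genes left out and to 225 at a threshold of 0.1. Deviations of same-numbered livers correlated across genes at 0.28, -0.47 and -0.34. The highest correlation was 0.61, between LV replicate 3 and untreated replicate 2, the livers high in male-biased genes. LV replicate 2 stood at 0.29 with untreated replicate 1 and 0.27 with untreated replicate 3. These correlations gave no sign of pairing by number, but they cannot tell whether the numbers mark a shared batch or day. Fold changes near 0 changed sign. That of Usp5 (0.03) ran from -0.045 to 0.14 with single libraries left out, that of Wdr48 (-0.05) from -0.12 to 0.023, and that of Psmd14 (-0.02) from -0.14 to 0.057. Psmd14 was also at 0.033 with median-of-ratios scaling and at 0.0077 with both livers high in male-biased genes left out. The cause was not tested. Of the 18 members described by value alone, 9 took the other sign in some alternative, and none passed in any. Read depth is unknown and values are rounded, which limits the lowest members most.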
